A study of Mus musculus with 3 samples.

Results

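The 8 genes described here encode Kruppel-like factors, namely Klf2, Klf3, Klf4, Klf6, Klf7, Klf9, Klf10 and Klf13. They were taken by symbol from the gene list of a single-cell RNA sequencing (scRNA-Seq) matrix, where they are 8 of 27998 genes. The matrix holds 7522 YFP (+) cells sorted from the lumbar cord of Cx3cr1-creER-yfp/+ heterozygous mice, labelled C57BL/6, in which the promoter of Cx3cr1 marks microglia and also other cells that use that gene. Naive mice gave 1 library, and mice taken 24 h or 48 h after sciatic nerve transection gave 1 each, every library being a pool of the cords of 3 animals. Only the number that ends each cell barcode tells them apart, and no label or method seen here links that number to a time point. They are therefore called library 1, 2 and 3, time points are not assigned, and a difference between injury states cannot be told apart from a difference in handling or sequencing.

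Kruppel-like factors are transcription factors that bind GC-rich and CACCC-type DNA elements through zinc fingers at their C terminus and differ in the regions that recruit activators or repressors. Klf2 is best known as a flow-responsive gene of endothelium that also keeps T cells and monocytes quiescent, Klf4 as a reprogramming factor that also acts in myeloid cells, and Klf6 as a widely used factor that is induced by many stimuli. Klf3 is a repressor that recruits CtBP, Klf7 is known from axon growth, Klf9 is a target of glucocorticoid and thyroid hormones, Klf10 is an early gene of TGF-beta signalling, and Klf13 is known as an activator of Ccl5 in T cells.

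Library 1 had 609 cells with a median of 2218 unique molecular identifiers (UMIs, 1 per counted transcript), library 2 had 3591 cells with 5952, and library 3 had 3322 cells with 5742. Levels are given as CPM, the UMIs of a gene per 1000000 UMIs of its library, with exact Poisson intervals. Values per cell are given at equal depth, after 2000 UMIs were drawn from each cell, which left 408, 3569 and 3284 cells. Intervals are at 95% and describe counting error and leave out variation among mice, and with 1 library per group there is no test between libraries. All 10 microglia markers were found in every library, with summed levels of 22980 to 28090 CPM. Summed markers of monocytes, perivascular macrophages, T cells, neutrophils, astrocytes, neurons and erythroid cells were between 0 and 4.73 CPM in every library, and those of endothelium, nearly all of it Pecam1, between 15.8 and 35.0 CPM with Cldn5 and Tek at 0. The 4 oligodendrocyte markers were higher, at 77.4, 62.3 and 72.1 CPM in libraries 1, 2 and 3, and Mag was the most frequent of them. Before UMIs were drawn, with library 1 the shallowest, these markers had at least 1 UMI in 14.9%, 33.4% and 34.4% of cells. Their part in the members' levels was not tested, no cells of another type were separated here, and the share of cells that free RNA alone would give was therefore not measured. Early genes and proliferation set the libraries apart. The summed UMIs of 17 immediate early genes (Fos, Jun, Egr1 and others, none of them a Kruppel-like factor) averaged 4.11, 5.05 and 48.4 per cell of 2000 UMIs in libraries 1, 2 and 3, and 9 heat shock genes averaged 1.90, 3.61 and 6.65. Cells with at least 3 UMIs of 38 replication and mitosis genes, called dividing here, were 0.490%, 43.9% and 1.10% of cells. The name is a loose one in library 2, where 1157 of the 1567 such cells had only 3 to 5 of these UMIs. Before UMIs were drawn, 97.7% of all library 2 cells had at least 1 UMI of the 25 mitosis genes. In all, 25 barcodes occurred in more than 1 library, with 51 cells.

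The start regions of the 3 members that differ most between the libraries are shown to let their sequences be set against each other. They run from 250 bases before to 50 after the annotated start, 5′ to 3′ on the gene's strand, from RefSeq on GRCm38.p6. They lie at chr8:72318812-72319111 on the plus strand (Klf2), chr4:55532426-55532725 on the minus strand (Klf4) and chr13:5861239-5861538 on the plus strand (Klf6). Capitals mark matches on either strand to the MEF2 consensus, the CArG box, the letters TGACG and the letters TGANTCA.
Klf2: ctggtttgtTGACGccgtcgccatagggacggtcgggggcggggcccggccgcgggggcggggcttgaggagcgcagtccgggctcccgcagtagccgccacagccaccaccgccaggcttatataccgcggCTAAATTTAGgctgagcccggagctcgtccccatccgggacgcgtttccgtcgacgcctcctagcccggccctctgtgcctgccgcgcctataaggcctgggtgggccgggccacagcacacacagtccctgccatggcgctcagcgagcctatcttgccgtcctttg
Klf4: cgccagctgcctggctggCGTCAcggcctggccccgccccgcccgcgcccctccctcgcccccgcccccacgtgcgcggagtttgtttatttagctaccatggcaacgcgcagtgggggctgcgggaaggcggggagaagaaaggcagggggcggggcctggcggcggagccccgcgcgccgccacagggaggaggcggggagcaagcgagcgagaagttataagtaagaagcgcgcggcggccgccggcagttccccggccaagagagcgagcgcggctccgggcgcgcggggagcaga
Klf6: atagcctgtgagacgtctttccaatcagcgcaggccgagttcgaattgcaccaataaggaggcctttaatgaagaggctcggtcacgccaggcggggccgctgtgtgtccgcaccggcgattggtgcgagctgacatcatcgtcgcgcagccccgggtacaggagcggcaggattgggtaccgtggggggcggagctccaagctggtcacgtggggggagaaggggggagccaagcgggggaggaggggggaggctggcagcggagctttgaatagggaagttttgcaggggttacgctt

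The Klf2 region held 1 match to the MEF2 consensus, the element of the MEF2 factors that ERK5 signalling acts on, beginning 118 bases before the start. No other member's region held one, and 3.19% of 32851 RefSeq promoters of this length did. The letters TGACG, which form part of the element bound by CREB and ATF factors, lay 241 bases before the start of Klf2 and 232 before that of Klf4, and they also occurred in the regions of Klf3, Klf9 and Klf13 and in 20.8% of promoters. The letters TGANTCA allow any base at the centre and are wider than the AP-1 element. They occurred, as TGAATCA, in the Klf9 region and in 7.81% of promoters. The CArG box of serum response factor was in none of the 7 regions and in 1.63% of promoters. The GC-box letters GGGCGG are an element that the family itself can bind. They lay 2 times in the Klf2 region, 4 times in that of Klf4 and 1 time in that of Klf6. They also lay 6 times in the region of Klf3, 1 time in that of Klf7 and 3 times in that of Klf13. The Klf9 region held 0, and 35.7% of promoters held at least 1. CACCC was found in the regions of Klf2, Klf3, Klf7, Klf9 and Klf13 but not in those of Klf4 or Klf6, and in 57.5% of promoters. TATAAA was in none of the 7 and in 13.6% of promoters. The search therefore found no single element that only Klf2, Klf4 and Klf6 share, and Klf6 held none of the marked matches. Klf10 was not in the table. These matches are letters in a window and do not show that a factor binds.

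The levels of the 8 members fell into 3 patterns. Klf2, Klf4 and Klf6 were far higher in library 3 than in the other libraries, Klf3, Klf7 and Klf13 stayed within 1.5-fold across all libraries, and Klf10 was lowest in library 1. Klf9 was close to absent.

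**Figure D1:**
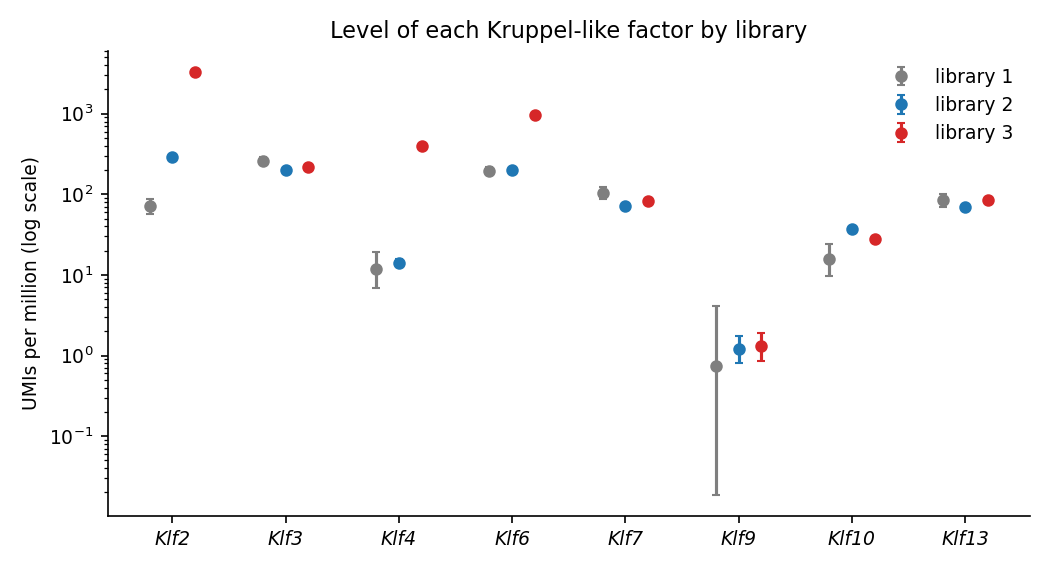
Level of each Kruppel-like factor in libraries 1 (grey), 2 (blue) and 3 (red), in CPM on a log axis, with exact Poisson 95% intervals that are often smaller than the points. Klf2, Klf4 and Klf6 stand out in library 3, while the points of Klf3, Klf7 and Klf13 lie close together.

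Klf2 (chr8:72319033-72321656, plus strand, GRCm38, with no overlapping gene in GENCODE M21) had levels of 70.7 CPM (interval 57.2 to 86.5), 290.3 CPM (283.5 to 297.2) and 3282 CPM (3257 to 3307) in libraries 1, 2 and 3. The 3 libraries thus lay in 3 separate steps. The level in library 3 was 11.3 times that of library 2 (11.03 to 11.6) and 46.4 times that of library 1 (38.0 to 57.4), and library 2 was 4.10 times library 1 (3.35 to 5.08). At equal depth, the share of cells with at least 1 Klf2 UMI was 12.01% (9.02 to 15.6), 41.3% (39.7 to 42.9) and 99.1% (98.7 to 99.4) in the order of the libraries. A mean cell had 0.132, 0.562 and 6.41 Klf2 UMIs. In library 3 the median cell had 6 Klf2 UMIs and the cell at the 5th percentile had 2, which was the 95th percentile of library 2. The high level of library 3 was therefore shared by nearly all of its cells rather than carried by a subset, and 63.6% of them had at least 5 Klf2 UMIs against 0.168% in library 2.

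Klf4 (chr4:55527143-55532466, minus strand, no overlapping gene) had levels of 11.9 CPM (6.81 to 19.4, from 16 UMIs), 14.0 CPM (12.5 to 15.6) and 400.6 CPM (391.8 to 409.5) in libraries 1, 2 and 3. Libraries 1 and 2 did not differ beyond counting error (ratio 1.17, 0.712 to 2.08), and library 3 was 28.7 times library 2 (25.7 to 32.0). At equal depth Klf4 was found in 2.70%, 2.52% and 47.3% of cells. Unlike Klf2, Klf4 was thus not detected in 52.7% of library 3 cells at this depth, and without drawing UMIs, where cells are deeper, it was found in 77.3% of them. Up to 11 Klf4 UMIs occurred in 1 cell of library 3, and no more than 2 in library 2.

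Klf6 (chr13:5861482-5870394, plus strand, no overlapping gene) had 195.8 CPM (172.9 to 221.0), 200.9 (195.3 to 206.6) and 970.0 (956.4 to 983.9) in libraries 1, 2 and 3. Libraries 1 and 2 lay within counting error of each other (ratio 1.03, 0.906 to 1.17), and library 3 was 4.83 times library 2 (4.68 to 4.98). Klf6 was found in 31.9%, 34.1% and 79.0% of cells at equal depth, with means of 0.404, 0.421 and 1.95 UMIs. Klf6 therefore had a sizeable level in every library, whereas Klf4 was near the limit of detection in libraries 1 and 2.

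**Figure D2:**
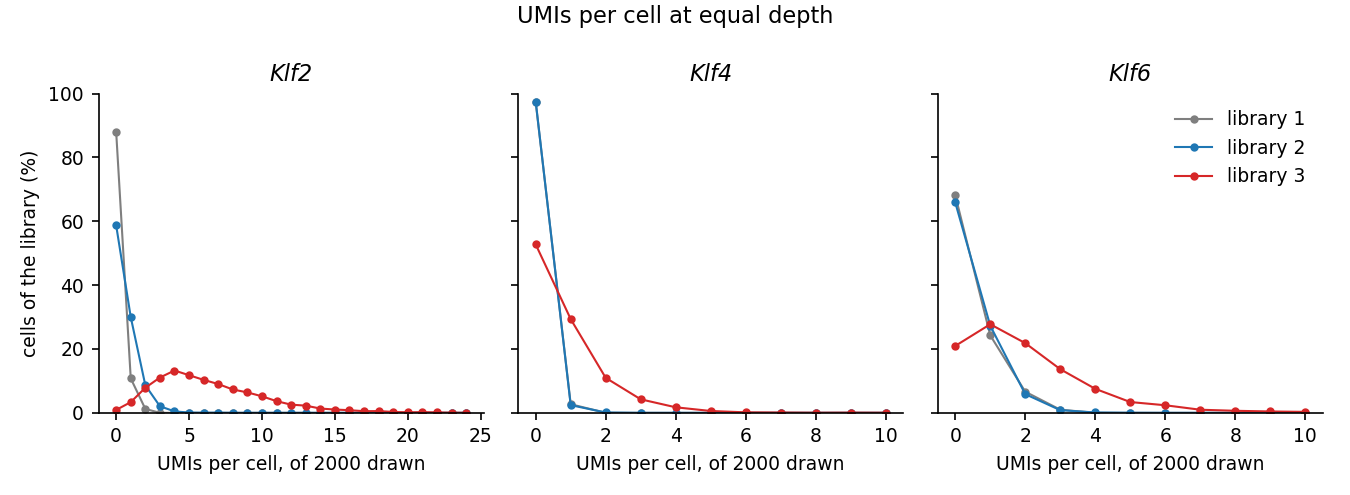
Share of cells (%) with each number of UMIs of Klf2, Klf4 and Klf6 among 2000 drawn per cell, in library 1 (grey, hidden behind blue for Klf4), library 2 (blue) and library 3 (red). For Klf2 the whole distribution of library 3 is moved to the right, with a median of 6. Klf4 averaged 0.768 UMIs in library 3, where 52.7% of cells had 0 at this depth. At so low a mean, a 0 does not mark a cell as unchanged.

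Klf3, Klf7 and Klf13 form the group with small differences. Klf3 (chr5:64803388-64832901, plus strand, overlapping C230096K16Rik on the same strand and Gm20033 on the other) had 259.9 CPM in library 1, 198.5 in library 2 and 218.0 in library 3, and was the highest member in library 1. Library 3 was 1.10 times library 2 (1.05 to 1.14), and library 2 was 0.764 times library 1 (0.685 to 0.854). Klf7 (chr1:64029447-64122282, minus strand, overlapping Mir6899 on the same strand and 2 genes on the other) had 103.5, 72.4 and 82.2 CPM, and library 2 was 0.699 times library 1 (0.588 to 0.837). Klf13 (chr7:63886351-63938915, minus strand, overlapping 2 genes on the other strand) had 84.9, 69.7 and 86.3 CPM, and library 3 was 1.24 times library 2 (1.16 to 1.32). In cells with 0 replication and mitosis UMIs, the log2 ratio of library 2 to library 1 was -0.15 for Klf3 instead of -0.39. For Klf7 it was -0.25 instead of -0.51, and for Klf13 it stayed at -0.28. Reads of the overlapping genes on the same strand cannot be told apart from those of Klf3 and Klf7 here. These differences are small beside those of Klf2, Klf4 and Klf6, and at equal depth the 3 genes were found in 33.2 to 38.5%, 13.9 to 16.7% and 12.99 to 15.9% of cells.

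Klf10 (chr15:38291463-38300706, minus strand, no overlapping gene) had levels of 15.6 CPM (9.68 to 23.9, from 21 UMIs), 37.2 CPM (34.8 to 39.7) and 28.2 CPM (25.9 to 30.7) in libraries 1, 2 and 3. It was 2.38 times higher in library 2 than in library 1 (1.55 to 3.86), and library 3 was 0.759 times library 2 (0.682 to 0.845). Over all cells its highest library was thus library 2, the one with most dividing cells, which sets it apart from Klf2, Klf4 and Klf6. In cells with 0 replication and mitosis UMIs the log2 ratio of library 3 to library 2 was -0.04 instead of -0.39. That ratio is of all UMIs of those cells. At equal depth they averaged 0.0709 Klf10 UMIs (0.0467 to 0.103, from 27 UMIs) in library 2. In library 3 they averaged 0.0507 (0.0422 to 0.0604). Whether libraries 2 and 3 differ in Klf10 among those cells is therefore not settled. Klf9 (chr19:23141226-23168134, plus strand, overlapping Mir1192) had 1, 29 and 26 UMIs in all, or 0.745, 1.20 and 1.32 CPM, and was found in 0 of 408 cells of library 1 at equal depth, which allows a share of up to 0.735%. At this depth no difference in Klf9 was detectable.

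Counted over the set, 7 members had a mean level of at least 10 CPM and were compared as log2 ratios of CPM with a pseudocount of 1, with Klf9 below that level. Each of the 7 was also above 10 CPM in every library by itself. In library 3 against library 2, 3 of the 7 were at least 2-fold higher (Klf2, Klf4 and Klf6) and 0 were lower, where 1.32% of 8130 genes were higher and 1.92% lower. The median log2 ratio was 0.30 over the members and -0.02 over all genes, and among the 8130 genes Klf4 ranked 3, Klf2 13 and Klf6 36 from the top. All of these genes also stand in a gene list that the study drew from the same experiment, so the count is no independent evidence of direction. In library 3 against library 1 the same 3 members were higher and 0 lower, where 3.62% of genes were higher and 5.01% lower. In library 2 against library 1, Klf2 and Klf10 were higher and 0 were lower, where 4.55% of genes were higher and 3.70% lower. Klf10 was no longer past 2-fold in that comparison when only cells with 0 replication and mitosis UMIs were counted (log2 ratio 0.94 instead of 1.20), which left Klf2 alone. That value still lay within the counting interval of the Klf10 ratio over all cells, which rests on 21 UMIs in library 1. It is also from all UMIs of those cells. At equal depth the same cells averaged 0.0249 Klf10 UMIs in library 1 (9 UMIs) and 0.0709 in library 2 (27 UMIs), still past 2-fold. The loss of the Klf10 call thus depends on the setting. The library comparisons of this paragraph share libraries and are not independent of each other. Within the 3284 cells of library 3 the members of the first group made up nearly all of the family's UMIs. Since each UMI is taken from the end of a transcript, shares of UMIs are not divided by gene length. Klf2 alone was 9.23% of the UMIs of the 8 members in library 1, 31.5% in library 2 and 64.3% in library 3, and Klf3 was 34.4%, 22.7% and 4.49%. The median number of members found in a cell of 2000 UMIs was 1, 1 and 3. Klf2, Klf4 and Klf6 were found together in 0%, 0.336% and 38.5% of cells.

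The next question was whether the members differed between dividing and other cells, and library 2 alone had enough of both. In its 1567 dividing cells and its 381 cells with 0 UMIs of the 38 replication and mitosis genes, 0 of 7 members differed by 1.5-fold or more, where 7.08% of 8102 genes were at least 1.5-fold higher and 3.21% lower in dividing cells. A count of 0 among 7 is near these shares and is no result about the members. Klf2 averaged 0.542 UMIs in dividing and 0.543 in other cells, a ratio of 0.997 (0.856 to 1.17). Klf6 had a ratio of 0.979 (0.819 to 1.18), so for both genes the interval was narrow around 1. Since 1157 of the 1567 dividing cells had only 3 to 5 such UMIs, these ratios mainly describe cells with few of them. Klf4 had 47 UMIs in dividing and 8 in other cells (ratio 1.43, 0.669 to 3.5), too few to separate the groups at this depth. Klf3 had a ratio of 0.864 (0.730 to 1.03), Klf7 0.902 (0.679 to 1.21), Klf13 0.892 (0.662 to 1.22) and Klf10 1.27 (0.837 to 1.99).

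Klf10 and Klf3 differed once the cells were split further by their replication and mitosis UMIs. Klf10, the TGF-beta early gene, averaged 0.0709 UMIs (0.0467 to 0.103) in cells with 0 such UMIs, 0.0617 with 1 or 2, 0.0717 with 3 to 5, 0.150 (0.110 to 0.199) with 6 to 10 and 0.115 (0.0572 to 0.205) with 11 or more. Klf3, the CtBP-binding repressor, went the other way, from 0.459 (0.394 to 0.533) in cells with 0 to 0.296 (0.239 to 0.363) with 6 to 10. The cut at 6 UMIs was chosen after these means were seen, so the ratios that follow describe the same difference and do not add to it. For cells with at least 6 against 0, the ratio was 2.0 for Klf10 (1.24 to 3.28) and 0.653 for Klf3 (0.514 to 0.827), and it was 1.09 for Klf2 (0.899 to 1.31). The cells with at least 6 were also deeper, with a median of 9068 UMIs against 5728, and Klf10 was 1.67 times higher (1.24 to 2.27) in the deepest than in the shallowest of 3 equal groups of all library 2 cells. Among cells above the median depth the Klf10 ratio was 2.69 (1.36 to 5.91), from 57 UMIs against 10, and among the others there were 1 and 17 UMIs. The Klf3 ratio was 0.627 (0.461 to 0.856) above the median depth and 0.849 (0.509 to 1.36) among the others, where the interval included 1. The part of depth in the Klf10 and Klf3 differences was not tested beyond these counts. With other definitions of dividing cells Klf10 alone, or Klf10 and Klf4, passed 1.5-fold, with ratios for Klf10 of 1.53 to 1.98. The share of all genes past 1.5-fold was not computed for those definitions, so the counts are no result about the members.

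**Figure D3:**
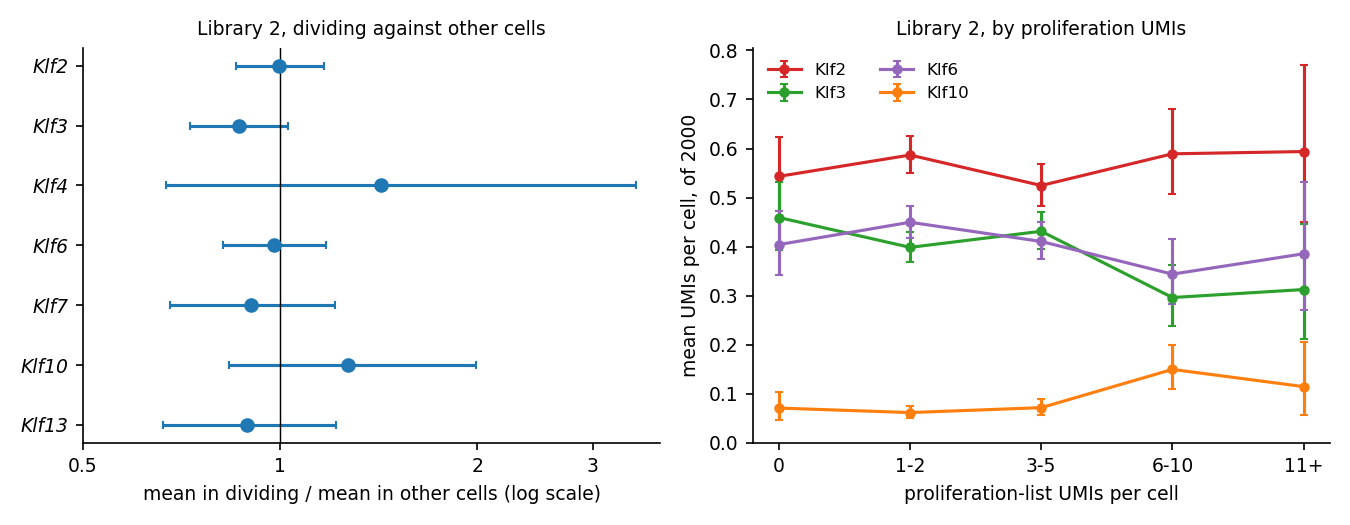
Library 2 at 2000 UMIs per cell. Left, ratio of mean UMIs in 1567 dividing to 381 other cells on a log axis with 95% counting intervals, all of which include 1. Right, mean UMIs of Klf2, Klf3, Klf6 and Klf10 by the number of replication and mitosis UMIs in a cell, with Poisson intervals, where Klf10 is higher and Klf3 lower in cells with 6 to 10 than in cells with 0.

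In library 3 dividing cells numbered 36, below the 50 set as a minimum, and their values are given without a comparison. Klf2 averaged 5.36 UMIs in them (4.63 to 6.17) and 6.45 in the 2486 cells with 0, Klf4 0.528 and 0.776, and Klf6 1.47 and 1.97. All of these means lay above those of any group of library 2. Library 1 had 2 dividing cells. Leaving out all but the cells with 0 replication and mitosis UMIs, the log2 ratio of library 3 to library 2 was 3.47 for Klf2, 5.22 for Klf4 and 2.28 for Klf6, against 3.5, 4.74 and 2.27 over all cells. The differences of these genes between libraries 2 and 3 were therefore at least about as large without the dividing cells. In cells with a UMI of Myc, the ratio of Klf2 to cells without was 0.976 (0.820 to 1.15) in library 2 and 1.01 (0.971 to 1.05) in library 3.

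The last comparison ranked the cells of each library by their summed UMIs of the 17 immediate early genes, which move with the first group of members across the libraries. In library 3 the highest 25% of cells averaged 72.4 early-gene UMIs and the lowest 26.9. Klf2 averaged 9.16 UMIs in the highest and 4.0 in the lowest 25% (ratio 2.29, 2.20 to 2.39), Klf4 1.26 and 0.396 (3.19, 2.81 to 3.62) and Klf6 2.84 and 1.14 (2.49, 2.31 to 2.69). These 3 of 7 members were at least 1.5-fold higher and 0 were lower, where 3.44% of 8116 genes were higher and 5.36% lower. Klf3, Klf7, Klf10 and Klf13 had ratios of 0.796 to 1.07, and each interval included 1. The cells of the highest 25% were somewhat deeper (median 5912 against 5008 UMIs), and in the deepest against the shallowest of 3 equal groups of library 3 cells the ratio was 1.24 for Klf2, 1.23 for Klf4 and 1.16 for Klf6, smaller than the ratios by early genes. Ranked by 9 heat shock genes instead, the ratios were 1.12 for Klf2 (1.08 to 1.16), 1.02 for Klf4 (0.906 to 1.14) and 1.08 for Klf6 (1.01 to 1.16). The link with early genes was thus not seen at that size with the heat shock genes. Their ranking rested on a median of 6 UMIs per cell, against 47 for the early genes. Before UMIs were drawn, 43064 of the 68322 heat shock UMIs of library 3 were Hspa8. Ranks from so few UMIs are coarser, so the smaller ratios do not show that the link is particular to early genes.

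In library 2, where early genes were low, the highest 25% averaged 8.95 and the lowest 2.03 early-gene UMIs. Klf2 averaged 0.691 and 0.447 UMIs (ratio 1.54, 1.36 to 1.76), whereas Klf6 had a ratio of 1.01 (0.874 to 1.17) and Klf4, from 35 and 21 UMIs, of 1.67 (0.944 to 3.01). In library 1, Klf13 had 26 UMIs in the highest and 8 in the lowest 25% of cells, 102 each (3.25, 1.43 to 8.31), which neither of the deeper libraries showed (1.18, 0.915 to 1.51, and 0.841, 0.662 to 1.07). Even the 10% of library 3 cells with fewest early-gene UMIs, a mean of 22.6, averaged 3.98 Klf2 UMIs (3.77 to 4.20), 0.374 of Klf4 and 1.10 of Klf6. These values lay above those of the 10% of library 2 cells with most early-gene UMIs, a mean of 11.1, which averaged 0.789, 0.0309 and 0.480. The early-gene levels of the libraries hardly overlapped, with the 5th percentile of library 3 at 23 UMIs and the 95th of library 2 at 10, so cells of equal early-gene level could not be compared between them. Whether the early-gene state, the injury or the preparation accounts for the members' levels was not tested.

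**Figure D4:**
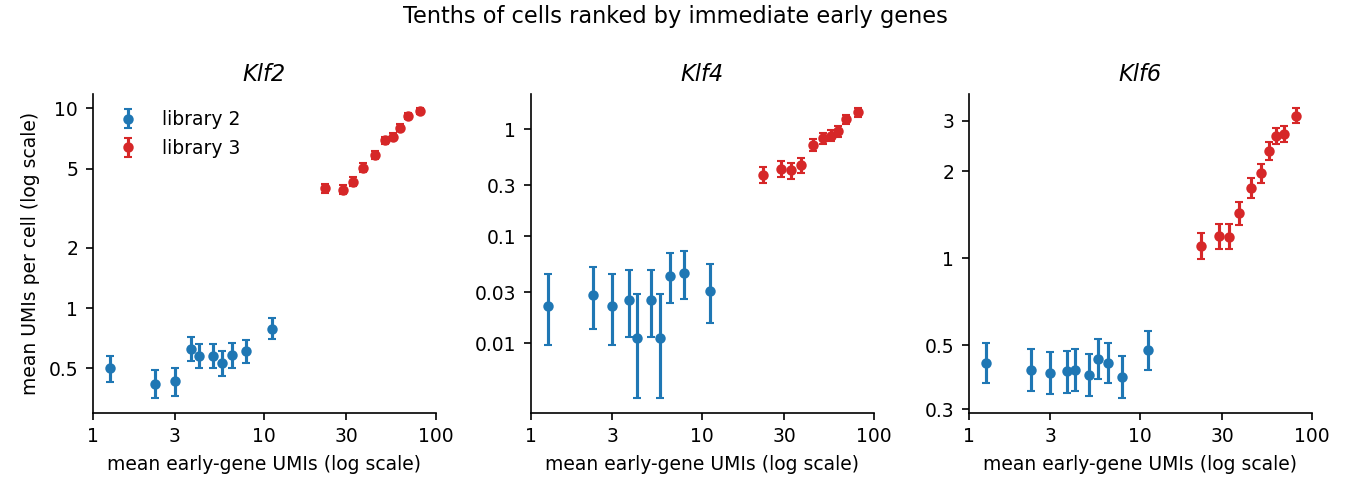
Mean UMIs of Klf2, Klf4 and Klf6 per cell of 2000 UMIs against mean UMIs of 17 immediate early genes, for 10 equal groups of the cells of library 2 (blue) and library 3 (red) ranked by those early genes, both axes log, with Poisson 95% intervals. In library 3 the means climb with the early genes, from 3.98 to 9.70 for Klf2, and every library 3 group lies above every library 2 group.

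Correlations across single cells gave the same grouping. They use the same library 3 cells as the ranking by early genes, whose list holds Fos, Fosb, Jun and Junb. They therefore restate that result and do not add to it. Across the 3284 cells of library 3, Pearson's r of log UMIs was 0.23 between Klf2 and Klf6, 0.21 between Klf2 and Klf4 and 0.15 between Klf4 and Klf6, and it lay between -0.04 and 0.04 for the other pairs of the 6 members found in at least 10% of cells. Among 5118 genes the ones most like Klf2 were Fos (0.40), Jun (0.38) and Junb (0.35), all AP-1 subunits. For Klf6 they were Fos (0.27), Junb (0.25) and Jun (0.23), and for Klf4 Fos (0.25), Fosb (0.22) and Jun (0.22). The genes most like Klf3, Klf7 and Klf13 reached only 0.07, 0.06 and 0.07 (Gabpb2, Pigs and Necap1). In library 2 no gene exceeded 0.07 for any member found in at least 10% of its cells, which leaves out Klf4, Klf9 and Klf10. The points of each correlation are cells of the same library with sparse counts, so values this weak are no finding for Klf3, Klf7 and Klf13.

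Of the genes around the members, the immediate early genes were the list most like Klf2, Klf4 and Klf6. Of 14 of them with a mean of at least 10 CPM, 14 were at least 2-fold higher in library 3 than in library 2. Egr2 (0, 2.70 and 49.1 CPM) reached that mean only through library 3 and had to differ, so it adds nothing to the count. Across all 8130 genes, 1.32% were higher. Most of the 14, like Klf2, Klf4 and Klf6, stand in a gene list that the study drew from the same experiment. The count is therefore no independent evidence of direction. The steps of the list can be seen from its AP-1 genes, with Fos at 23.8, 178.3 and 3932 CPM in libraries 1, 2 and 3. Fos thus rose from library 1 to library 2 (ratio 7.48), as Klf2 did. Junb, at 452.7, 475.9 and 3072 CPM, was nearly level between these 2 libraries (ratio 1.05), as Klf6 was. In library 2 against library 1, 6 of the 14 were higher, where 4.55% of all genes were. Egr2 is among the 6 although it was below 10 CPM in both of these libraries. Of 8 heat shock genes with a mean of at least 10 CPM, 3 were at least 2-fold higher in library 3 than in library 2. They were Hspb1 (0.745, 0.581 and 59.0 CPM), Hspa1a (0, 5.60 and 148.3) and Dnajb1 (35.0, 65.0 and 254.3). Hspb1 and Hspa1a reached that mean only through library 3 and had to differ, so Dnajb1 is left. Against library 1, 7 of the 8 were higher in library 3, where 3.62% of all genes were. Of 5 genes of glucocorticoid signalling, the pathway that acts on Klf9, 3 were higher in library 3 than in library 2, namely Tsc22d3 (88.6, 110.4 and 349.6 CPM), Per1 (5.21, 6.18 and 22.9) and Sgk1 (444.5, 263.6 and 917.2). Per1 reached a mean of 10 CPM only through library 3 and had to differ, so Tsc22d3 and Sgk1 are left. Sgk1 stands in the same gene list of the study, so it is no independent evidence either. The receptor Nr3c1 and Fkbp5, another glucocorticoid target, were within 2-fold, as was Klf9 itself on few UMIs.

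The listed genes known to act upstream of Klf2 and Klf4 stayed within 2-fold in library 3 against library 2. Of 7 genes of the ERK5, MEF2 and FOXO route, 0 were 2-fold higher or lower there. Mapk7, which encodes ERK5, was at 20.9, 22.4 and 23.2 CPM and Mef2c at 1134, 886.8 and 995.2. Of all 8130 genes, 1.32% were higher and 1.92% lower in that comparison. Counts of 0 in this list and the short lists below are near such shares and are no result about the pathways. Mef2d, at 43.9, 16.7 and 18.8 CPM, was lower in libraries 2 and 3 than in library 1. Of 9 TGF-beta genes, the pathway that induces Klf10, 0 were past 2-fold in any comparison, and Smad7, its feedback inhibitor, had 155.6, 139.6 and 252.0 CPM. Of 11 co-regulators that the factors recruit, 0 were past 2-fold between libraries 3 and 2, and Crebbp, a coactivator, had 66.3, 32.4 and 42.8 CPM, past 2-fold only in library 2 against library 1. These are transcript levels and say nothing of the activity of the kinases or of the proteins.

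Of 6 known targets with a mean of at least 10 CPM, 0 were higher and 1 was lower in library 3 against library 2. That one, Ccl5, the chemokine that Klf13 activates in T cells, had 13.4, 28.3 and 7.38 CPM, while Klf13 had 84.9, 69.7 and 86.3. S1pr1, a Klf2 target in T cells, had 26.1, 7.72 and 14.3 CPM, so it was lowest in library 2, and Cdkn1a, a cell cycle inhibitor raised by Klf4 and Klf6, had 178.0, 278.5 and 292.0 CPM. Cdkn1c, another cell cycle inhibitor, had 18.6, 7.59 and 8.24 CPM. In library 2 against library 1, Ccl5 was past 2-fold higher and S1pr1 and Cdkn1c past 2-fold lower, although Cdkn1c reached the mean of 10 CPM only through library 1 and had to differ. Txnip had 288.9, 144.7 and 272.1 CPM, 1.88 times higher in library 3 than in library 2. Nos3, the endothelial nitric oxide synthase that Klf2 raises, was below the limit at 0, 6 and 31 UMIs (0, 0.249 and 1.57 CPM), and Thbd had 0 UMIs. The targets thus differed among themselves, with S1pr1 and Txnip lowest in library 2. Nos3 was higher in library 3 than in library 2 at a very low level, and library 1 was too shallow to place it. Among the rest of the family, 5 of 13 genes reached a mean of 10 CPM (Klf16, Sp1, Sp2, Sp3 and Sp4) and 0 were past 2-fold in library 3 against library 2, while Sp4 was lower in library 2 (7.80 CPM) than in library 1 (17.9), having reached the limit only through library 1. Klf8, Klf14 and Klf17 had 0 UMIs in all libraries. Across all 8130 genes, 1.32% were higher and 1.92% lower in library 3 against library 2, so counts in lists this short say little. The large difference of library 3 was seen in 3 Klf genes, namely Klf2, Klf4 and Klf6. Klf3, Klf7, Klf10, Klf13 and Klf16 stayed within 2-fold between libraries 3 and 2. The other Klf genes of the 17 in the file were too low to compare.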

How the data were processed

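The submitters' processing notes name Cell Ranger 2.1.1 and the mm10 genome build. The authors deposited 1 matrix of UMI counts per gene and cell, without normalization, joining 3 libraries of microglia from the lumbar cord, with gene and barcode lists. The methods state doublet exclusion in the sort, and doublets were not called here. How the libraries were joined, and any equalizing of read depth, is not given in the sources used here.

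Members and all gene lists were chosen with earlier results of these data known. Counts were summed per library and scaled to CPM, and genes with a mean of at least 10 CPM were compared as log2 ratios with a pseudocount of 1, with 2-fold as the limit. Cells were thinned to 2000 UMIs without replacement (seed 1), with 201, 22 and 38 shallower cells left out. Shares have exact (Clopper-Pearson) and sums exact Poisson intervals, ratios conditional binomial ones. For 0 counts, 3 counts were taken as the upper limit. Groups of cells were compared with at least 50 cells and 30 UMIs, with 1.5-fold as the limit. With 1 library per group no test was run.

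Named genes were the 8 members, genes of the fixed lists past 2-fold, and for each member found in at least 10% of cells genes from the 3 with the highest correlation among genes in at least 5% of cells. Not every immediate early or heat shock gene past 2-fold was named. Other listed genes were named for their role after their values were seen. Of the T cell list, 3 of 4 genes were in the file. Positions are from GENCODE M21. Folds, intervals and thinning were tested on simulated data. Software was Seurat 5.3.0 in R 4.3.3, and scipy 1.17.1, pandas 2.3.3 and numpy 2.4.6 in Python 3.11.15.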

Additional observations from a re-analysis of the deposited data

How the results depend on the processing

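Of 35 recomputed counts of members past a limit, 28 kept within 1.5 times the reported count and 7 did not. In cells with 0 replication and mitosis UMIs, the members past 2-fold in library 2 against library 1 were 1 instead of 2, since Klf10 had a log2 ratio of 0.94 instead of 1.20. In those cells 297 of 8021 genes were higher and 327 lower. This Klf10 change lay within the counting interval. At equal depth the same cells were still past 2-fold in Klf10, at 0.0709 UMIs per cell in library 2 against 0.0249 in library 1. The 3 members past 2-fold in library 3 against library 2 stayed at 3 in the 9 alternatives (median-of-ratios scaling, cell filter, thinning, no pseudocount, a limit of 1.5-fold, no filter on low genes, and 3 sets of cells left out), and against library 1 at 3 or, at 1.5-fold, 4. At 1.5-fold, 903 of 8130 genes were higher and 1474 lower in library 3 against library 1. The members past 1.5-fold in dividing cells of library 2 were 0, but 1 with at least 5 UMIs, 1 with Seurat phases and 1 with the mitosis list alone (Klf10 in each), and 2 with the replication list alone and 2 without thinning (Klf4 and Klf10). The share of all genes past 1.5-fold was not computed for these other settings, so their counts are no result about the members. The members past 1.5-fold by early genes in library 3 were 3, and 0 when cells were ranked by heat shock genes, a ranking on far fewer UMIs per cell. Chosen after seeing the data, a split by depth gave Klf10 a ratio of 0.225 in shallower library 2 cells, on 1 against 17 UMIs, the reverse of the ratio over all cells. Of 299 single values, 231 stayed within the counting interval, 67 did not and 1 was reversed. Most of the 67 were shares of cells recomputed at 1000 UMIs or with at least 2 UMIs, settings that lower a share by themselves. For Klf2 in library 2 the share was 41.3%, and 24.1% and 11.3% with these settings. The cause of the other changes was not tested. No paired analysis was possible because each group is 1 library. Depth limits Klf9 in every library and Klf4 and Klf10 in library 1.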
